A study of Mus musculus with 12 samples.

Results

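Bone morphogenetic protein (BMP) and anti-Müllerian hormone (AMH) signalling was described through 10 genes: the ligands Bmp2 and Amh, the secreted BMP antagonist Grem1, the receptors Bmpr1a, Bmpr1b, Bmpr2 and Amhr2, and the target genes Id1, Id2 and Id3. The members were all probe sets that the array's annotation assigns to 1 of these genes and to no other, which gave 23 of the 34945 single-gene probe sets and 10 of 18193 gene symbols. RNA of mouse granulosa cells, which line the follicle and nurse the oocyte, was measured on 12 arrays in 4 groups of 3. The groups were Inha-/- cells and wild-type cells after PMSG followed by hCG, and Inha-/- cells and wild-type cells after PMSG alone. All mice were 21 days old, carried the strain label C57BL/6J;129S5/SvEvBrd and had received 5 IU of PMSG (pregnant mare serum gonadotropin, which drives follicle growth) for 44 to 46 h. The hCG groups had then received 5 IU of hCG (human chorionic gonadotropin, which acts as the ovulatory luteinizing hormone surge) for 6 h. Inha encodes the inhibin alpha subunit, and cells of all groups were taken by puncture of antral follicles. How the allele was made and how many mice gave each sample are not given in the sources used here. Inha-/- cells and mice are called the knockout in what follows.

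BMPs and AMH belong to the TGF-beta superfamily of secreted ligands. A ligand dimer brings together a type I receptor (BMPR1A and BMPR1B among others) and a type II receptor (BMPR2 among others for BMPs, AMHR2 for AMH). The complex phosphorylates SMAD proteins that enter the nucleus. Gremlin, the product of Grem1, binds BMPs outside the cell and keeps them from their receptors, and the Id genes, which encode inhibitors of basic helix-loop-helix transcription factors, are widely used as readouts of BMP signalling. In the ovary, granulosa cells make and receive these signals, and AMH comes mainly from granulosa cells of small growing follicles.

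Values were deposited on a log2 scale with each probe set centred on its own median over the 12 arrays, so a value of 1 is a doubling over that probe set's median. Neither the level of a gene nor its presence can be read from such values, and no gene's value can be set against another gene's. Each gene is shown by its probe set of largest SD over the 12 arrays, a choice that favours probe sets that respond, and its other probe sets are given beside it. Comparisons were fitted with limma over 22846 probe sets and called at an adjusted p under 0.05 (Benjamini-Hochberg over all of them). All 10 genes and 21 of the 23 probe sets were in the fit, the other 2 being probe sets of Bmpr1a with too small an SD, and the 22846 probe sets stood for 12500 genes, over which the shares of all genes given below were counted.

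The deleted gene followed the labels. Inha stood at -7.35, -7.35 and -7.40 in the 3 knockout samples after hCG, against 5.52, 5.40 and 5.42 in wild type after hCG, and at -7.38, -5.40 and -7.25 in the knockout after PMSG, against 5.62, 5.62 and 5.87 in wild type after PMSG. Replicates of the knockout after PMSG were the least alike, with correlations over the fitted probe sets of 0.218 to 0.377, against 0.519 to 0.745 in wild type after PMSG. After hCG these correlations were 0.400 to 0.722 in the knockout and 0.689 to 0.825 in wild type. Markers of oocytes and of theca and stroma also differed between the genotypes. Of the 8 fitted oocyte markers 7 were higher in the knockout after hCG and 6 after PMSG, and the median of the list lay at 0.63 to 3.21 in knockout samples against -1.71 to -0.98 in wild-type samples after hCG, and at 0.83 to 2.47 in knockout samples against -1.80 to -0.77 in wild-type samples after PMSG. Of the 9 fitted theca and stroma markers 6 were higher in the knockout after hCG, while 5 were higher and 1 lower after PMSG. In bulk samples, fewer cells of a type and less RNA per cell cannot be told apart, and the part of cell composition in the results below was not tested.

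Promoter sequences were available for 7 of the 10 genes (250 bases before the annotated start, RefSeq, build GRCm38.p6); Bmp2, Amh and Id1 had no entry. Of these 7 genes, 6 changed with hCG in wild type: Id2 rose, and Id3, Grem1, Bmpr2, Amhr2 and Bmpr1b fell. The windows of the first 5 are shown so that the rising gene can be set beside the falling ones; Bmpr1b has several annotated starts and its windows are not shown. Each runs 5′ to 3′ on the gene's strand and ends at the base before an annotated start. The Amhr2 window lies inside the annotated gene, which begins at chr15:102445002, so its start is not the outermost one. The windows of Bmpr1a and Bmpr1b, counted below, also lie inside their genes. Capitals mark GGCGCC, a GC-rich motif to which SMAD proteins of the BMP branch can bind. The Id2 window is chr12:25096093-25096342 (minus strand), the Id3 window chr4:136143572-136143821 (plus strand), the Grem1 window chr2:113758649-113758898 (minus strand), the Bmpr2 window chr1:59764029-59764278 (plus strand) and the Amhr2 window chr15:102445117-102445366 (plus strand).
Id2: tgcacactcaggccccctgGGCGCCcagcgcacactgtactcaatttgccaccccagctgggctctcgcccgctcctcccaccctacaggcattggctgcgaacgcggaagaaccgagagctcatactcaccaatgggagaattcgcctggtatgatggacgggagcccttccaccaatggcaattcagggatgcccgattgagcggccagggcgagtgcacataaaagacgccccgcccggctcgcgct
Id3: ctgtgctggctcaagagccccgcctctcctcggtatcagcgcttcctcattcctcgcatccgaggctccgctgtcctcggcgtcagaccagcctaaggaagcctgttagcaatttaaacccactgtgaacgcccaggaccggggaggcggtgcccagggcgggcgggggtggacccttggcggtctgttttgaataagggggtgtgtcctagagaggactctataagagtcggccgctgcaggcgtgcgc
Grem1: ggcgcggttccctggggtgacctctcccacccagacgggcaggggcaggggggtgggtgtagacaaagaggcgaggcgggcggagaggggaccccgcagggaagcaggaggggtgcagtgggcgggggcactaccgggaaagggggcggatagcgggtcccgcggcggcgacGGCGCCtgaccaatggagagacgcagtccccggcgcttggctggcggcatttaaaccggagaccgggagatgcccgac
Bmpr2: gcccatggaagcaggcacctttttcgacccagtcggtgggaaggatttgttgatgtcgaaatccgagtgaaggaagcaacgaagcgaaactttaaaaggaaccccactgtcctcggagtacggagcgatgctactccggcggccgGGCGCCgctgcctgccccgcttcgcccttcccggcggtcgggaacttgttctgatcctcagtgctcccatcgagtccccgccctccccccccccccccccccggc
Amhr2: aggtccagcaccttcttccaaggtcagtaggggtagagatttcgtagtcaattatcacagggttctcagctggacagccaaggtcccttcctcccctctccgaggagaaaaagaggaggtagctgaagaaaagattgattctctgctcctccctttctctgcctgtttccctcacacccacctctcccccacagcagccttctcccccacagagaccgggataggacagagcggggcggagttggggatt
The motif begins 231 bases before the start of Id2, 78 before that of Grem1 and 105 before that of Bmpr2, and it is in no window of Id3, Amhr2 or Bmpr1b. It was thus found in 3 of the 6 genes that changed with hCG in wild type and in 4 of the 7 genes with Bmpr1a. Counted by promoter window, it was in 4 of 9, and in 9.59% of all 32851 promoters of the table. The motif holds only G and C, and the windows with it were 62.8 to 78.8% G and C. Those without it were 62.8% (Id3), 55.2% (Amhr2) and 46.8 to 56.4% (Bmpr1b). The part of base content in these counts was not tested. The palindromic SMAD element GTCTAGAC, the cAMP response element TGACGTCA and the E-box CACGTG were found in none of the 9 promoter windows of the 7 genes, and in 0.167%, 1.55% and 6.02% of all promoters. All 4 motifs read the same on both strands. A match describes letters in a window and says nothing of binding.

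**Figure D1:**
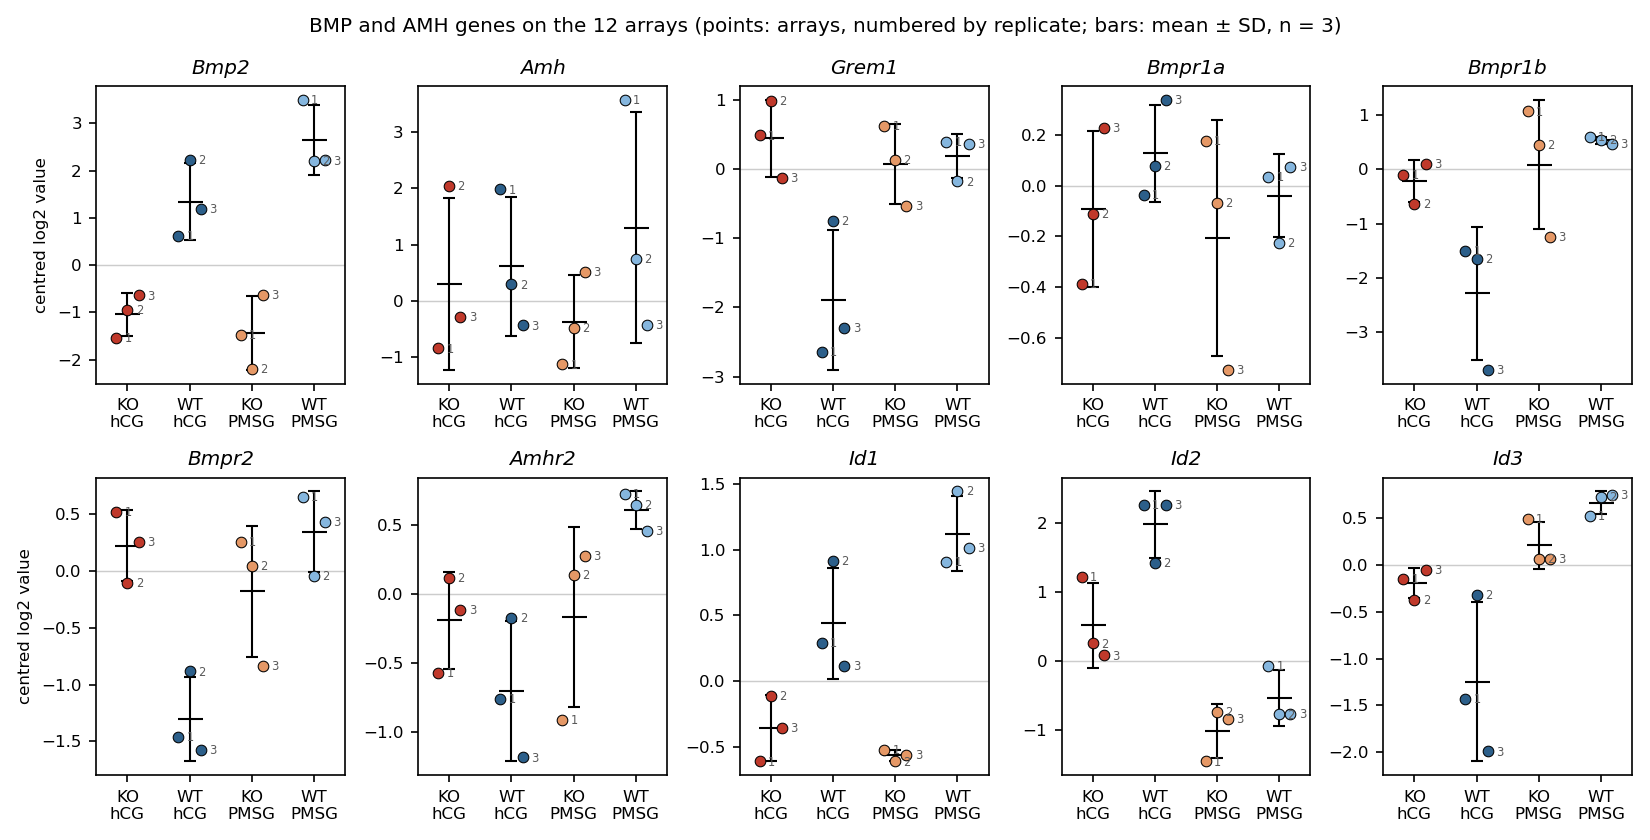
Centred log2 values (vertical axes, in log2 units from the probe set's own median) of the shown probe set of each gene on the 12 arrays, with knockout left of wild type and the hCG groups left of the PMSG groups; points are arrays, numbered by replicate, and bars are the mean ± SD of 3. The Bmp2 and Id1 points of both knockout groups lie below all wild-type points, and the Grem1, Bmpr1b and Bmpr2 points of wild type after hCG lie below all points of the knockout after hCG.

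After PMSG alone, Bmp2 and Id1 fell in the knockout and no other gene of the group passed the test. The 2 that fell are 2 of 10, where 3.35% of all genes fell and 3.19% rose. The differences of the 10 shown probe sets were all negative, with a median of -0.50 against 0.02 over all genes. Those of the 5 other probe sets of Bmpr1a were positive (0.02 to 0.27), as was that of 1 other probe set of Bmpr1b (0.03) and of Id2 (0.07), and leaving out 1 array turned Grem1 (up to 0.18), Bmpr1a (up to 0.09) and Bmpr1b (up to 0.22) positive. At the shown probe sets, 3 of the 10 had an unadjusted limma p under 0.05, the third being Amhr2, where 2583 of all 12500 genes had one. After hCG the genotypes differed in 7 of the 10 genes. Grem1, Bmpr1b, Bmpr2 and Id3 were higher in the knockout (4 of 10, where 13.1% of all genes were higher) and Bmp2, Id1 and Id2 were lower (3 of 10, where 9.36% were lower), with a median of 0.15 against 0.035 over all genes.

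Within wild type, 6 h of hCG raised Id2 and lowered Grem1, Bmpr1b, Bmpr2, Amhr2 and Id3. The rise is 1 of 10, where 10.2% of all genes rose, and the falls are 5 of 10, where 12.6% fell; the median over the 10 genes was -1.31, against -0.06 over all genes. In the knockout, Id2 rose with hCG and it alone passed (1 of 10, where 2.48% of all genes rose). The limma count of members that fell there was 0 of 10, where 0.224% of all genes fell. At an unadjusted p under 0.05 it was also 0 of 10, where 594 of 12500 genes fell. The median over the 10 genes was 0.29 in the knockout, against -0.03 over all genes. Over all probe sets the knockout response was 495 higher and 33 lower, and 564 higher and 160 lower after a further quantile normalization. The genotype and hCG comparisons share arrays, so their values are given side by side and not set against each other as separate evidence.

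The test of the difference between the responses, knockout response minus wild-type response, passed for Bmpr2 alone. That is 1 of 10 higher, where 0.656% of all genes were higher, and 0 of 10 lower, where 1.64% were lower. At an unadjusted p under 0.05, 0 of 10 were lower too, where 781 of 12500 genes were. The median of this difference was 1.43 over the 10 genes and 0.08 over all genes. In either direction 7 of 10 had an unadjusted limma p under 0.05, where 1973 of 12500 genes had one. The adjusted limma p was 0.0935 for Grem1, 0.156 for Id3, 0.192 for Bmpr1b and 0.228 for Amhr2. For these 4 a fall in wild type that was not called in the knockout was therefore not shown to differ between the genotypes.

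**Figure D2:**
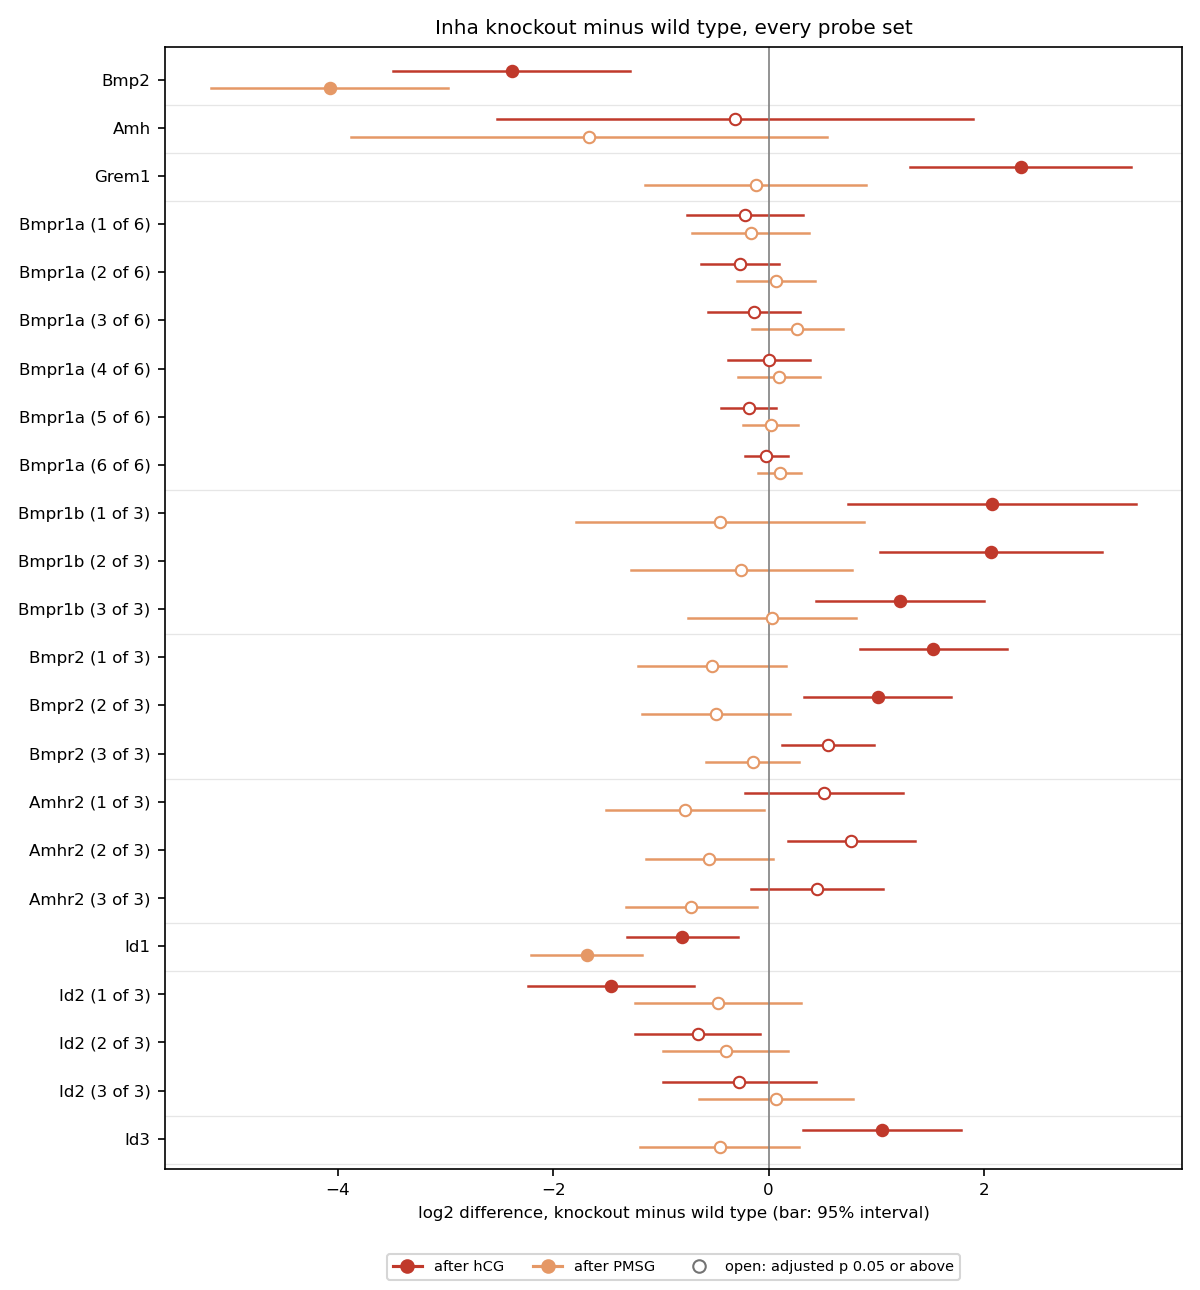
Knockout minus wild-type differences (horizontal axis, log2 units, bars: 95% intervals from limma) of every probe set of the 10 genes, after hCG and after PMSG; filled points passed at an adjusted p under 0.05. Bmp2 and Id1 pass on the lower side in both treatments, and Grem1, Bmpr1b and Bmpr2 pass on the upper side after hCG only.

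Among the ligands, Bmp2, which encodes BMP2, differed most between the genotypes. After hCG it stood at -1.53, -0.94 and -0.64 in the knockout samples, against 0.63, 2.23 and 1.19 in wild type. Without hCG it stood at -1.47, -2.20 and -0.63 in the knockout, against 3.51, 2.21 and 2.22 in wild type. All 6 knockout samples lay below zero and all 6 wild-type samples above it, with no overlap within either treatment. The knockout was 16.9-fold lower after PMSG (log2 difference -4.08, SE 0.502, 95% interval -5.17 to -2.98, limma adjusted p = 0.000933) and 5.23-fold lower after hCG (log2 difference -2.39, SE 0.502, adjusted p = 0.00606). Both calls held whichever single array was left out, with differences of -4.48 to -3.65 after PMSG and -2.75 to -1.95 after hCG. The hCG response was 0.39 in the knockout (95% interval -0.71 to 1.49, adjusted p = 0.819) and -1.30 in wild type (adjusted p = 0.0906). The wild-type fall passed without replicate 2 of wild type after hCG (-1.74, adjusted p = 0.0342), and it also passed after quantile normalization (-2.04) and with the last number of the array names, low or high, as a covariate (-1.97). Bmp2 is represented by 1 probe set.

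Amh, which encodes anti-Müllerian hormone, varied widely between samples of one group. After hCG it stood at -0.85, 2.03 and -0.29 in the knockout, against 1.98, 0.29 and -0.44 in wild type. With PMSG alone it stood at -1.13, -0.48 and 0.51 in the knockout, against 3.57, 0.74 and -0.42 in wild type. The groups overlapped in both treatments, and a single sample in each of 3 groups stood well above the other two. The knockout minus wild-type difference was -1.67 after PMSG (95% interval -3.88 to 0.55, limma adjusted p = 0.412) and -0.31 after hCG (95% interval -2.52 to 1.90, adjusted p = 0.904). Without replicate 1 of wild type after PMSG, the highest of the 12 samples, the PMSG difference was -0.53. The hCG interval spans more than a doubling and more than a halving, so a difference of that size was not detectable with 3 arrays per group.

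Grem1 encodes gremlin 1, a BMP antagonist that cumulus granulosa cells make. After hCG it stood at 0.48, 0.98 and -0.13 in the knockout, against -2.64, -0.75 and -2.30 in wild type. Its values after PMSG were 0.62, 0.13 and -0.53 in the knockout, against 0.39, -0.18 and 0.36 in wild type. Wild type after hCG was the low group, and its 3 samples lay below the other 9. The knockout was 5.07-fold higher than wild type after hCG (log2 difference 2.34, SE 0.469, limma adjusted p = 0.00458), while the difference after PMSG was -0.12 (95% interval -1.14 to 0.91, adjusted p = 0.93). The hCG response was 0.38 in the knockout (95% interval -0.65 to 1.40, adjusted p = 0.815) and a 4.25-fold fall in wild type (log2 difference -2.09, SE 0.469, adjusted p = 0.00872). The difference between the responses was 2.46 and did not pass (adjusted p = 0.0935), but it was 3.04 with an adjusted p of 0.0101 without replicate 2 of wild type after hCG.

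Of the type I receptors, Bmpr1b changed, while the shown probe set of Bmpr1a passed in no comparison. Bmpr1b stood at -0.11, -0.64 and 0.11 in the knockout after hCG, against -1.50, -1.65 and -3.71 in wild type. After PMSG it stood at 1.07, 0.45 and -1.25 in the knockout, against 0.60, 0.54 and 0.47 in wild type. The samples of wild type after hCG lay below all others, and the third was the lowest by a wide margin. hCG lowered Bmpr1b 7.09-fold in wild type (log2 difference -2.83, SE 0.612, limma adjusted p = 0.00728) and its other probe sets by -2.77 and -1.72 (adjusted p = 0.00196 and 0.00595). In the knockout the response was -0.31 (95% interval -1.64 to 1.03, adjusted p = 0.902). The knockout was 4.2-fold higher after hCG (log2 difference 2.07, SE 0.612, adjusted p = 0.033), and the other probe sets differed by 2.07 and 1.22 (adjusted p = 0.00928 and 0.0316). That call of the shown probe set was lost without replicate 3 of wild type after hCG (1.36), and without any 1 of the 3 knockout samples after hCG (1.91 to 2.29). The call was also lost without the SD filter and with a number shared between array names as a random block. After PMSG the difference was -0.45 (95% interval -1.79 to 0.89, adjusted p = 0.735). The 3 probe sets moved together, with correlations of 0.852 to 0.983 over the 12 arrays.

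Bmpr1a, the other type I receptor among the genes described, had 6 probe sets whose correlations over the 12 arrays ran from 0.122 to 0.713. The shown probe set stood at -0.39, -0.11 and 0.23 in the knockout after hCG, against -0.04, 0.08 and 0.34 in wild type. With PMSG alone its values were 0.18, -0.07 and -0.73 in the knockout, against 0.04, -0.23 and 0.08 in wild type. The groups overlapped in both treatments. Its knockout minus wild-type difference was -0.22 after hCG (95% interval -0.76 to 0.32) and -0.17 after PMSG (95% interval -0.71 to 0.37), so these intervals leave out a doubling or a halving. Neither passed (limma adjusted p = 0.606 and 0.757). With hCG 1 of the 6 probe sets rose in wild type, by 0.51 (adjusted p = 0.0471), while the shown one differed by 0.17 (adjusted p = 0.705).

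Bmpr2, a type II receptor for BMPs, was the gene whose hCG response differed between the genotypes. It stood at 0.52, -0.11 and 0.26 in the knockout after hCG, against -1.46, -0.88 and -1.57 in wild type. Without hCG it stood at 0.26, 0.04 and -0.83 in the knockout, against 0.66, -0.04 and 0.43 in wild type. Wild type after hCG was again the low group, below all other samples. The response to hCG was 0.40 in the knockout (95% interval -0.28 to 1.09, limma adjusted p = 0.672) and a 3.15-fold fall in wild type (log2 difference -1.65, SE 0.313, adjusted p = 0.00366). The responses differed by 2.06 (SE 0.443, 95% interval 1.09 to 3.02, adjusted p = 0.039), and for the other probe sets by 1.50 and 0.70 (adjusted p = 0.126 and 0.27). The difference between the responses did not pass when any 1 of 10 of the 12 arrays was left out, at 1.73 to 2.25, and it passed without replicate 1 of the knockout after PMSG or replicate 2 of wild type after hCG. After hCG the knockout was 2.89-fold higher (log2 difference 1.53, SE 0.313, adjusted p = 0.00516), a call that held whichever array was left out, and the other probe sets differed by 1.01 and 0.55 (adjusted p = 0.0404 and 0.069). After PMSG the difference was -0.52 (adjusted p = 0.403).

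Amhr2, the type II receptor for AMH and a marker of granulosa cells, fell with hCG in wild type. It stood at -0.58, 0.11 and -0.11 in the knockout after hCG, against -0.76, -0.17 and -1.19 in wild type. With PMSG alone it stood at -0.92, 0.14 and 0.27 in the knockout, against 0.72, 0.65 and 0.46 in wild type. The groups overlapped after hCG, and after PMSG all 3 wild-type samples lay above the knockout. hCG lowered it 2.49-fold in wild type (log2 difference -1.32, SE 0.336, limma adjusted p = 0.0168), and its other probe sets by -1.37 and -1.32 (adjusted p = 0.00448 and 0.00644). The shown probe set lost this call without replicate 1 or replicate 2 of wild type after PMSG (-1.26 and -1.30) and without replicate 3 of wild type after hCG (-1.08). The response in the knockout was -0.02 (95% interval -0.76 to 0.71, adjusted p = 0.989). The knockout minus wild-type difference was 0.52 after hCG (adjusted p = 0.323) and -0.78 after PMSG (95% interval -1.51 to -0.04, adjusted p = 0.225). For the other probe sets it was 0.77 and 0.45 after hCG (adjusted p = 0.0658 and 0.298), the former without overlap of the groups. After PMSG it was -0.55 and -0.72 for them (adjusted p = 0.29 and 0.176).

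**Figure D3:**
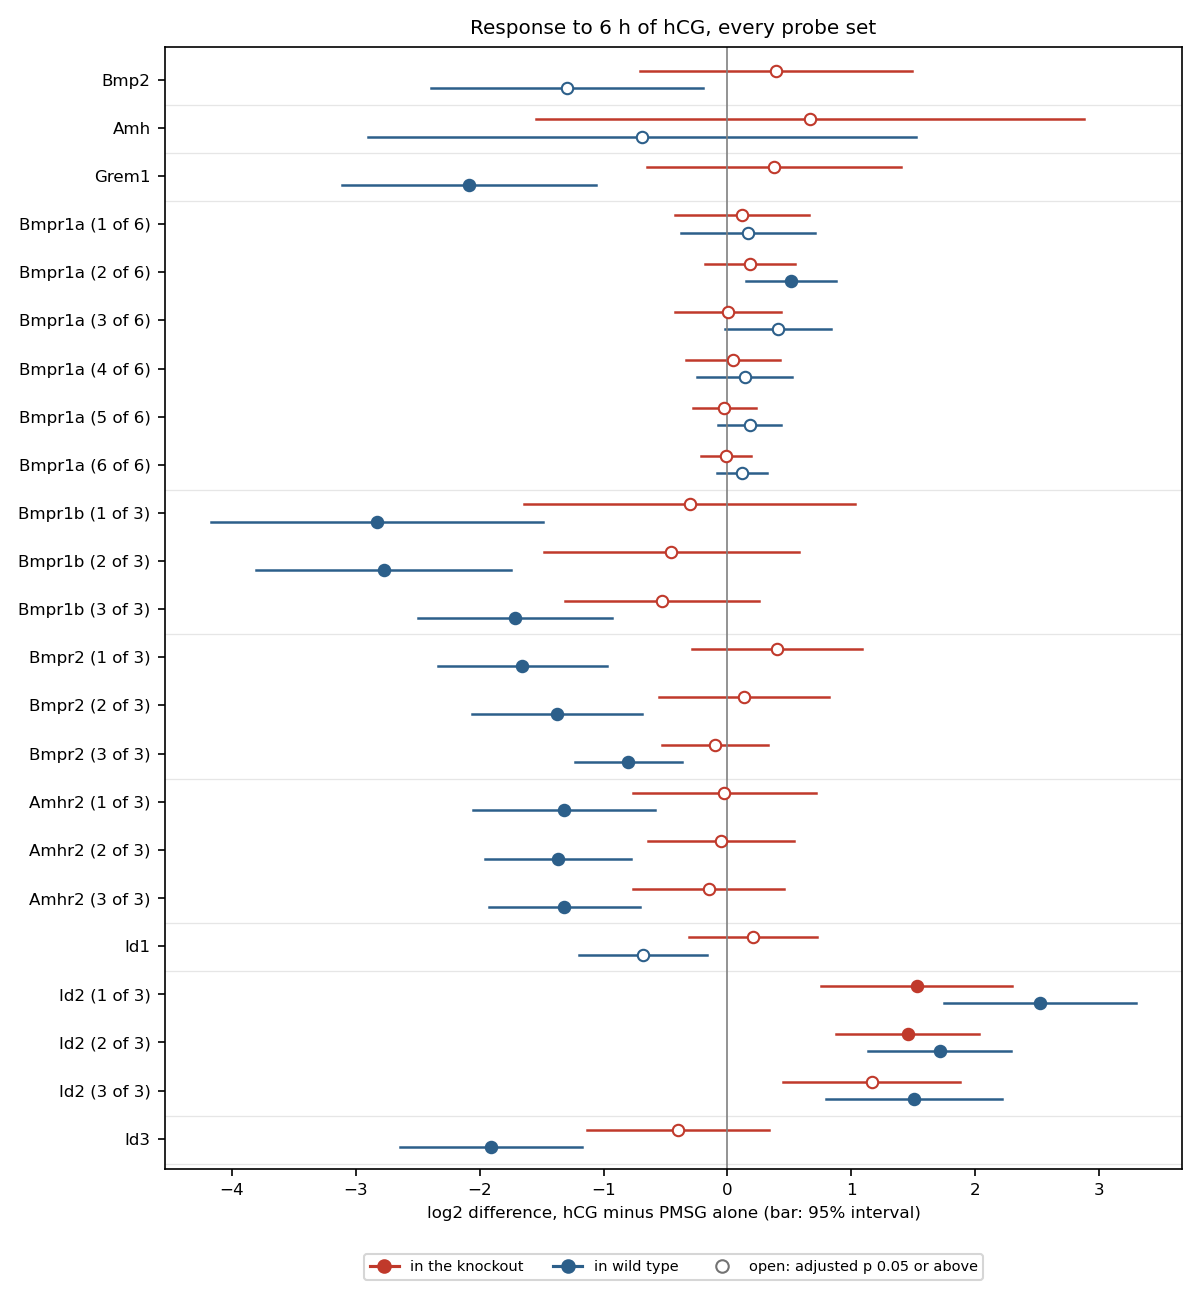
Differences between hCG and PMSG alone (horizontal axis, log2 units, bars: 95% intervals from limma) of every probe set of the 10 genes, in the knockout and in wild type; filled points passed at an adjusted p under 0.05. In wild type all 3 probe sets of Bmpr1b, of Bmpr2 and of Amhr2 fell and all 3 of Id2 rose; in the knockout 2 probe sets of Id2 rose and none of the other genes passed.

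The 3 targets went different ways. Id1 was lower in the knockout in both treatments. It stood at -0.61, -0.11 and -0.36 in the knockout after hCG, against 0.29, 0.92 and 0.11 in wild type. Its values after PMSG were -0.53, -0.61 and -0.56 in the knockout, against 0.91, 1.45 and 1.01 in wild type. All knockout samples were below zero, all wild-type samples above it, and the knockout samples after PMSG lay within a narrow range (SD 0.0444). The knockout was 3.23-fold lower after PMSG (log2 difference -1.69, SE 0.235, 95% interval -2.21 to -1.18, limma adjusted p = 0.00195) whichever array was left out. It was 1.74-fold lower after hCG (log2 difference -0.80, SE 0.235, adjusted p = 0.0324), a call lost without replicate 1 or 3 of the knockout after hCG (-0.67 and -0.80) or replicate 2 of wild type after hCG (-0.56). The call was also lost after quantile normalization (-0.85) and with a number shared between array names as a random block (-0.79). The hCG response was 0.21 in the knockout (95% interval -0.31 to 0.72, adjusted p = 0.791) and -0.68 in wild type (adjusted p = 0.0604). The wild-type fall passed without replicate 2 of wild type after hCG (-0.92, adjusted p = 0.0134). Id1 is represented by 1 probe set.

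Id2 rose with hCG in both genotypes. It stood at 1.22, 0.25 and 0.08 in the knockout after hCG, against 2.26, 1.42 and 2.26 in wild type. After PMSG it stood at -1.46, -0.74 and -0.84 in the knockout, against -0.08, -0.78 and -0.78 in wild type. Every hCG sample lay above every PMSG sample, and after hCG every wild-type sample lay above the knockout. The rise was 2.88-fold in the knockout (log2 difference 1.53, SE 0.353, limma adjusted p = 0.0474) and 5.75-fold in wild type (log2 difference 2.52, SE 0.353, adjusted p = 0.000559). The other probe sets differed by 1.45 and 1.16 in the knockout (adjusted p = 0.0115 and 0.117) and rose by 1.71 and 1.51 in wild type (adjusted p = 0.00108 and 0.00728). In the knockout the call of the shown probe set was lost without any 1 of the 6 arrays (1.18 to 1.75, adjusted p = 0.054 to 0.143). The responses differed by -0.996, which did not pass (adjusted p = 0.409). After hCG the knockout was 2.76-fold lower (log2 difference -1.46, SE 0.353, adjusted p = 0.0127), but the other probe sets differed by -0.66 and -0.27 and did not pass (adjusted p = 0.103 and 0.633). That call was lost without replicate 2 or 3 of the knockout after hCG (-1.33 and -1.25), without replicate 3 of wild type after hCG (-1.32) and after quantile normalization (-0.79). After PMSG the difference was -0.47 (adjusted p = 0.519).

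Id3 moved opposite to Id2. It stood at -0.15, -0.38 and -0.06 in the knockout after hCG, against -1.43, -0.32 and -1.99 in wild type. With PMSG alone its values were 0.49, 0.06 and 0.06 in the knockout, against 0.52, 0.72 and 0.74 in wild type. Each hCG group lay below its PMSG group, and after hCG replicate 2 of wild type lay within the range of the knockout. hCG lowered Id3 3.75-fold in wild type (log2 difference -1.91, SE 0.336, limma adjusted p = 0.00246). In the knockout the response was -0.40 (95% interval -1.13 to 0.33, adjusted p = 0.699), and the responses differed by 1.51 (adjusted p = 0.156), or by 1.97 with an adjusted p of 0.00678 without replicate 2 of wild type after hCG. The knockout was 2.07-fold higher after hCG (log2 difference 1.05, SE 0.336, adjusted p = 0.0461). This call held when replicate 2 of wild type after hCG was left out (1.51) and was lost when any 1 of the other 5 hCG arrays was, with 0.68 without replicate 3 of wild type. The call was also lost without the SD filter, after quantile normalization (0.71) and in each fit with a block or covariate. After PMSG the difference was -0.45 (adjusted p = 0.51).

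Over the 12 arrays, Bmp2 and Id1 followed each other most closely among the members (r = 0.92). Bmpr1b correlated with Id3 at 0.89 and with Bmpr2 at 0.88, Grem1 with Bmpr2 at 0.89, and Id2 with Id3 at -0.87. All these points share the 4 groups, so the correlations are descriptions of 12 arrays. Among the 12499 other fitted genes, Bmp2 was most like Pla2r1 (r = 0.975), Dapk1 (0.969) and Angpt2 (0.963), and Id1 most like Asb4 (0.950), Ddit4l (0.950) and Kyat3 (0.946). Grem1 was most like Tbc1d7 (0.957), Prickle2 (0.943) and 4930581F22Rik (0.935). The receptor Bmpr1b was most like Zfp385b (0.979), Fam234b (0.975) and Gja1 (0.975), the last of which encodes a connexin of gap junctions. Bmpr2 was most like Prepl (0.924), Paqr8 (0.919) and Dnajb14 (0.917), and Bmpr1a most like Unc119b (0.898), Tmod3 (0.884) and Vamp3 (0.880). Amh was most like Chrd (0.927), Chd3 (0.909) and Crtc2 (0.904), and Amhr2 most like Nfe2l1 (0.929), Antkmt (0.929) and Igtp (0.923). Id2 was most like Hs6st1 (0.960), Dyrk2 (0.959) and Spen (0.957), and Id3 most like Bphl (0.985), Tnni3 (0.979) and Aif1l (0.975).

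Of 52 other listed genes of the BMP pathway, 32 had a probe set in the fit. After hCG, 5 of the 32 were higher in the knockout and 1 was lower, with a median difference of 0.31, where 13.1% of all genes were higher and 9.36% lower. Gdf9, an oocyte-derived ligand, was 10.3-fold higher (log2 difference 3.36, limma adjusted p = 0.00341) and Fstl1, a secreted follistatin-like glycoprotein, 4.56-fold higher (2.19, adjusted p = 0.00531). The BMP antagonist Chrdl1 was 3.55-fold higher (1.83, adjusted p = 0.00382), the activin and BMP antagonist Fst 2.85-fold higher (1.51, adjusted p = 0.000957) and the inhibitory SMAD gene Smad7 2.11-fold higher (1.08, adjusted p = 0.0132). The antagonist Nbl1 was 2.54-fold lower (-1.35, adjusted p = 0.0058). Smad1, a SMAD of the BMP branch, was not counted because its shown probe set differed by -0.50 (adjusted p = 0.284). Its other 2 probe sets were lower by -1.15 and -0.93 (adjusted p = 0.00946 and 0.0109). Bmp15, also on the oocyte marker list, and Rgmb were likewise not counted, at 1.98 and 0.85 (adjusted p = 0.078 and 0.125). Another probe set of each was higher, by 1.90 and 0.86 (adjusted p = 0.0155 and 0.00271). Smad1, Bmp15 and Rgmb are named after their values were seen. After PMSG, 3 of the 32 were higher in the knockout, where 3.19% of all genes were, with a median of 0.02: Gdf9 by 3.19 (adjusted p = 0.0133), Fstl1 by 2.36 (adjusted p = 0.0103) and Bmper, which encodes a secreted BMP-binding protein, by 0.86 (adjusted p = 0.048). Gdf9 is also 1 of the oocyte markers that were higher in the knockout, and the part of oocyte RNA in its difference was not tested.

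With hCG, 2 of the 32 pathway genes rose in the knockout (median 0.53), where 2.48% of all genes rose. In wild type 6 rose and 3 fell (median 0.17), where 10.2% of all genes rose and 12.6% fell. Bmper rose 5.73-fold in the knockout (log2 difference 2.52, limma adjusted p = 5.36e-05) and 16.6-fold in wild type (4.05, adjusted p = 4.11e-07). Bmp6, a BMP ligand, rose by 1.22 in the knockout (adjusted p = 0.049) and by 1.16 in wild type (adjusted p = 0.0136), and the difference between these responses was 0.06 (adjusted p = 0.966). In wild type the antagonist Nbl1 rose 3.19-fold (1.67, adjusted p = 0.00186), and the antagonists Chrdl1 and Fst fell 2.98-fold (-1.57, adjusted p = 0.00871) and 2.55-fold (-1.35, adjusted p = 0.00204). Of the other 3 probe sets of Chrdl1 there, 1 fell by 1.26 (adjusted p = 0.00515) and 2 differed by -0.50 and -0.42 without passing (adjusted p = 0.235 and 0.536). Among the targets, Hey2, a transcriptional repressor, fell 4.4-fold in wild type (-2.14, adjusted p = 0.00403), and Id4 rose by 1.46 (adjusted p = 0.032) with overlapping samples, while its other probe sets differed by 0.04 and 0.98 and did not pass (adjusted p = 0.971 and 0.0527). For Smad1, 2 of 3 probe sets rose in wild type, by 1.13 and 1.09 (adjusted p = 0.0102 and 0.0048), and the shown one differed by 0.91 (adjusted p = 0.0508). The test between the responses passed for Fst (1.56, adjusted p = 0.0346) and for Bmper (-1.53, adjusted p = 0.0348). That is 1 of 32 higher, where 0.656% of all genes were, and 1 of 32 lower, where 1.64% were. A second probe set of Fst differed by 0.79 and did not pass (adjusted p = 0.188).

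**Figure D4:**
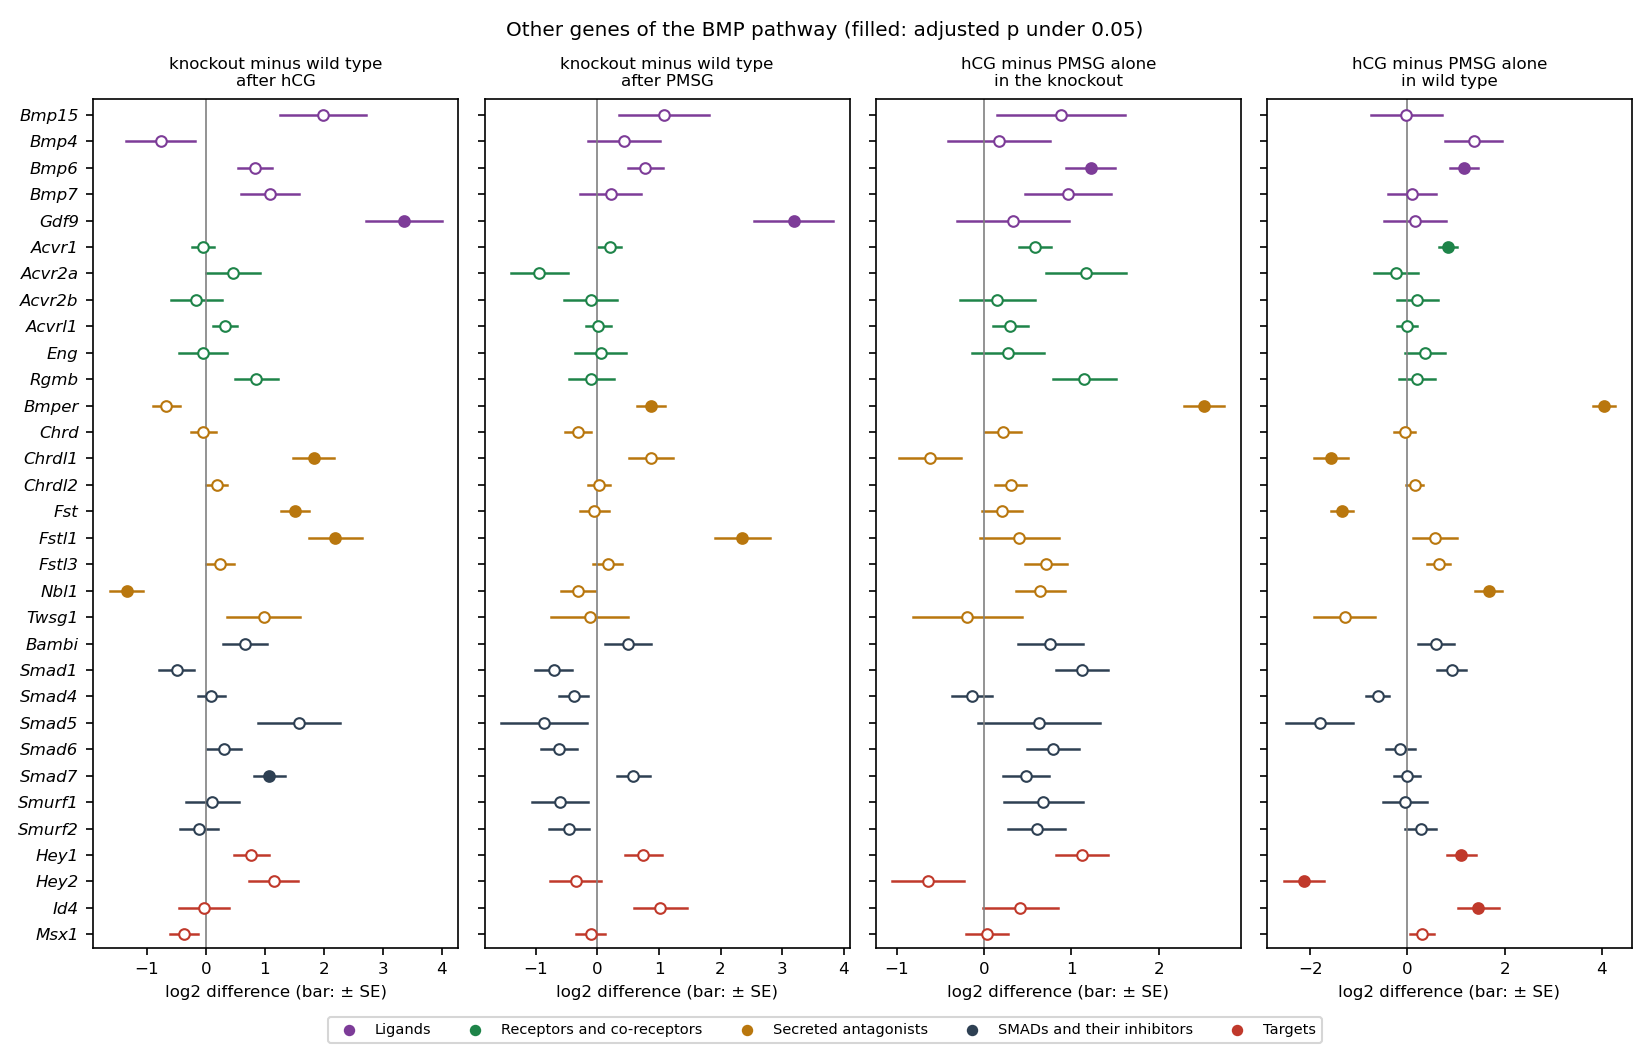
Differences (horizontal axes, log2 units, bars: ± SE from limma) of the 32 fitted genes of the BMP pathway list, coloured by role, in 4 comparisons; filled points passed at an adjusted p under 0.05. Gdf9 and Fstl1 lie to the right in both genotype panels, and Bmper is the highest point in both hCG panels.

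Most granulosa markers fell with hCG in wild type, as did Bmpr1b, Bmpr2 and Amhr2 but not Bmpr1a. Of 7 fitted, Amhr2 among them, 6 fell with hCG in wild type and 0 in the knockout (0 also at an unadjusted p under 0.05), with a median difference of -0.16 in the knockout and -1.57 in wild type. Fshr, the receptor for follicle-stimulating hormone, fell by 1.91 in wild type, Gja1 by 1.87 and the nuclear receptor gene Nr5a2 by 1.57. The median of the list lay at -0.52 to -0.08 in the knockout samples after hCG and at -1.67 to -0.49 in wild type after hCG, and at -0.51 to 0.29 in the knockout and 0.43 to 0.70 in wild type after PMSG. Inha stood low in every knockout sample and high in every wild-type sample, so it can lower the knockout medians and raise the wild-type ones. Its part in these medians was not tested. The part of the granulosa marker shift in the falls of Bmpr1b, Bmpr2 and Amhr2 was not tested. The medians of the 6 fitted surface epithelium markers lay at -0.59 to -0.18 in the knockout and 0.29 to 1.03 in wild type after hCG, and at -1.46 to -0.66 in the knockout and 0.07 to 0.82 in wild type after PMSG. Of these 6, 3 were lower in the knockout after hCG and 4 after PMSG, where 9.36% and 3.35% of all genes were. The medians of the 12 dissociation and stress genes lay at -0.27 to 0.18 in the knockout and 0.69 to 2.23 in wild type after hCG, and at -2.07 to -0.43 in the knockout and -0.41 to 1.58 in wild type after PMSG. Of these 12, 2 were lower in the knockout after hCG and 1 after PMSG. Leukocyte and endothelium markers, 5 fitted of each, had 0 genotype calls in limma (at an unadjusted p under 0.05, 1 of 5 leukocyte markers after hCG and 0 after PMSG, and 0 of 5 endothelium markers after hCG and 2 after PMSG). The part of the surface epithelium, stress, leukocyte and endothelium lists in the differences of Bmp2 and Id1 was not tested.

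The names of the arrays end in a number whose meaning is not given in the sources used here. A limit at 9000, chosen for this comparison, divides the arrays into low- and high-numbered ones. The knockout after PMSG had 2 low- and 1 high-numbered array, wild type after PMSG had low-numbered arrays only, and each hCG group had 1 low- and 2 high-numbered arrays. Between genotypes after hCG, the 7 called genes kept their direction in both sets. Bmp2 differed by -2.16 on the low-numbered arrays and -2.50 on the high-numbered ones, Grem1 by 3.12 and 1.95, Bmpr1b by 1.40 and 2.41, and Bmpr2 by 1.99 and 1.30. Id1 differed by -0.90 and -0.75, Id2 by -1.04 and -1.67, and Id3 by 1.28 and 0.94. The hCG comparison rests on 1 array against 1 among the low-numbered arrays and 2 against 2 among the others. On the low-numbered arrays after PMSG, Bmp2 differed by -4.48 and Id1 by -1.69. The wild-type hCG response on low-numbered arrays, 1 against 3, was 2.80 for Id2, -2.83 for Grem1, -2.04 for Bmpr1b, -1.81 for Bmpr2, -1.37 for Amhr2 and -2.09 for Id3. For Id2 the knockout response was 2.32 on the low-numbered arrays and 1.003 on the high-numbered ones. The names of replicates 1 and 2 also share another number between the genotypes after PMSG, and within these pairs Bmp2 differed by -4.98 and -4.41 and Id1 by -1.43 and -2.06. Replicates 2 and 3 of wild type after hCG share such a number with each other, and the numbers that end their names are consecutive. Whether these arrays are less independent than the others was not tested.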

How the data were processed

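RNA was measured on 12 single-colour Affymetrix arrays with 45101 probe sets, and titles and characteristics gave each sample its group. The authors deposited log2 values after GCRMA (background correction and normalization), per the submitters' processing notes; which version of GCRMA is not given in the sources used here. Deposited log2 values have a median of zero in every probe set, which no label mentions, so levels and signal over background are unknown. The medians of the arrays, -0.02 to 0.093, were left as they were.

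Probe sets were named from the platform annotation. limma 3.58.1 in R 4.3.3 fitted 4 group means (8 residual degrees of freedom) to the single-gene, non-control probe sets whose SD over the 12 arrays was in the upper 60% (SD over 0.151), without pairing, and p-values were adjusted by Benjamini-Hochberg over the 22846 probe sets of a comparison. The 2 Bmpr1a probe sets under the SD limit were fitted without that filter. The 10 genes, the pathway and marker lists and the tests were chosen with earlier results of these data known. Genes named beside the members were the called pathway genes (up to 6 per comparison with values), the 3 genes most correlated with each member and up to 4 per marker list. The submitters' design text calls the triplicates independent; how many mice each holds is not given, and 3 arrays per group limit the precision. Alternatives were no filter, 1 probe set per gene, quantile normalization, blocks by replicate or array-name number, low- or high-numbered arrays, array weights and leaving out each array. The fit was tested on simulated data. Promoters came from RefSeq (GRCm38.p6); their bases after the start were not used.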

Additional observations from a re-analysis of the deposited data

Results flagged for a closer look

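The response of Bmpr2 to hCG differed between the genotypes in limma's test of the difference itself, by 2.06 on the log2 scale (adjusted p = 0.039): the knockout response was 0.40 and the wild-type response -1.65. The 3 wild-type samples after hCG (-1.46, -0.88 and -1.57) lay below all samples of the knockout after hCG (0.52, -0.11 and 0.26). The other probe sets of the gene differed by 1.50 and 0.70 and did not pass (adjusted p = 0.126 and 0.27). The adjusted p lay between 0.0223 and 0.16 over the 20 alternatives tried, of which 8 kept the call.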

How the results depend on the processing

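No result of the 10 genes that had been called changed direction under any alternative tried. Bmp2 and Id1 after PMSG, and the wild-type responses of Grem1, Bmpr1b, Bmpr2, Id2 and Id3, passed in all 14 alternatives. The other calls depended on the choice of arrays, filter, normalization or model, and the cause was not tested. Genotype calls after hCG were 4 of the 10 genes after quantile normalization, 4 with the array-name number as a random block, 1 on low-numbered arrays only and 0 on high-numbered arrays only (3 at an unadjusted limma p under 0.05), against 7. Calls of the knockout response were 0, against 1, without the SD filter, with the replicate block, with the random block, on low- or high-numbered arrays only and with array weights (1 at an unadjusted p under 0.05, 2 on low-numbered arrays). Calls between the responses were 0, against 1, without the filter and on low-numbered arrays (6 and 4 at an unadjusted p under 0.05). Leaving out 1 array gave 2 to 2 called genes after PMSG, 3 to 6 after hCG, 5 to 8 for the wild-type response, 0 to 0 for the knockout response (1 at an unadjusted p under 0.05 each time) and 0 to 3 between the responses.

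Over all probe sets, calls in the main setting were 1322 after PMSG, 4709 after hCG, 4725 for the wild-type response, 528 for the knockout response and 459 between the responses. In the same order they were 774, 2672, 2764, 334 and 261 with 1 probe set per gene, where fewer probe sets were tested, and 259, 963, 1984, 185 and 106 on low-numbered arrays only, with fewer samples. High-numbered arrays gave 1574 after hCG and 27 for the knockout response. Quantile normalization gave 305 between the responses, and array weights gave 846 there and 7959 for the wild-type response. Leaving out 1 array gave 741 to 1557 after PMSG, 2720 to 4352 after hCG, 2524 to 4617 and 346 to 604 for the wild-type and knockout responses, and 216 to 938 between the responses.

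The fit did not pair the samples by replicate number. With each group's mean subtracted, same-numbered knockout and wild-type samples correlated at 0.164, 0.270 and 0.073 after PMSG. Differently numbered ones ran from -0.209 to 0.035 there, below all same-numbered ones. After hCG the same-numbered ones correlated at 0.193, -0.061 and 0.005, and the others ran from -0.164 to 0.168. Whether the numbers stand for a pairing was not tested. With the replicate block, 2 of the 10 genes were called after PMSG, 6 after hCG, 7 for the wild-type response, 0 for the knockout response and 1 between the responses, with 1383, 4686, 4845, 534 and 444 probe sets. Since values are centred, the depth of signal behind a difference is unknown.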
